A study of Mus musculus with 8 samples.

Results

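The genes described here encode 10 neuropeptide precursors of the hypothalamus, namely Oxt, Avp, Hcrt, Pmch, Trh, Agrp, Cartpt, Gal, Ghrh and Gnrh1, which were matched by symbol among the 24343 genes of a whole-brain bulk RNA-seq table. All 10 were found. The RNA came from whole brains of 3 C57BL/6NCrl mice, an inbred wild-type strain, aged 56 to 62 days and given no treatment that the labels name, with 3 libraries each from mouse 1 and mouse 2 and 2 libraries from mouse 3. The labels do not say what the library numbers stand for, so libraries of a mouse were read as repeated samples of that mouse and not as an order. There was a single condition, and the bulk values served the study as a reference for the average level of each gene in the brain. The comparisons that the samples allow are therefore between genes and between individual mice, and p-values measure the mice against the spread between their libraries, which may be technical.

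Neuropeptides are made as larger precursors in the secretory pathway. Prohormone convertases cut the precursor at pairs of basic residues, a carboxypeptidase trims the basic residues, and in many peptides a C-terminal glycine is converted into an amide. Released peptides act mostly on G protein-coupled receptors, near the release site, at distant axon terminals or, for the neuroendocrine peptides, through the pituitary. In the hypothalamus most of these genes are used by small and spatially compact sets of neurons, such as the magnocellular neurons of the supraoptic and paraventricular nuclei for oxytocin and vasopressin, the lateral hypothalamus for orexin and melanin-concentrating hormone, and the arcuate nucleus for AgRP. Several are not restricted to it, since Cartpt, Gal and Trh are also used in other brain regions. In RNA from a whole brain, a lower level can come from fewer cells of a type or from less RNA per cell, which cannot be told apart, and the region of origin is not recorded.

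Between 1.31 and 2.02 gigabases were read on transcripts in each library, estimated as coverage multiplied by transcript length. Levels are given in FPKM (fragments per unit of transcript length, relative to all mapped fragments of the library), summed over the transcripts of a gene, taken as the mean of a mouse's libraries and given as the mean of the 3 mice, with the SD between mice. FPKM is a scale per transcript length, so levels of different genes may be set side by side. A trend with transcript length that differed between libraries, described further on, limits this for genes of unlike length. The number of fragments behind a value was worked out from the deposited upper confidence bound, which lies above the value by that value times 2 divided by the square root of the fragment number. Among low values of genes with 1 transcript, 83.5% gave a whole number within 0.05.

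Together the 10 genes reached 60.0 ± 17.7 FPKM (SD, n = 3 mice), which was 0.0170 ± 0.00291% of the summed FPKM of all genes. Pmch was the highest at 14.9 ± 4.33 FPKM, above 82.1% of all genes. Cartpt followed at 10.2 ± 5.91 FPKM, Avp at 9.25 ± 1.15 FPKM, Oxt at 8.95 ± 1.96 FPKM, Hcrt at 7.10 ± 3.44 FPKM and Trh at 5.06 ± 0.646 FPKM. Gal, at 2.66 ± 0.685 FPKM, and Gnrh1, at 1.23 ± 0.0702 FPKM, lay lower. Ghrh, at 0.404 ± 0.274 FPKM, and Agrp, at 0.312 ± 0.185 FPKM, were below 1 FPKM, and 38.8% of all genes had a lower mean than Agrp.

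**Figure D1:**
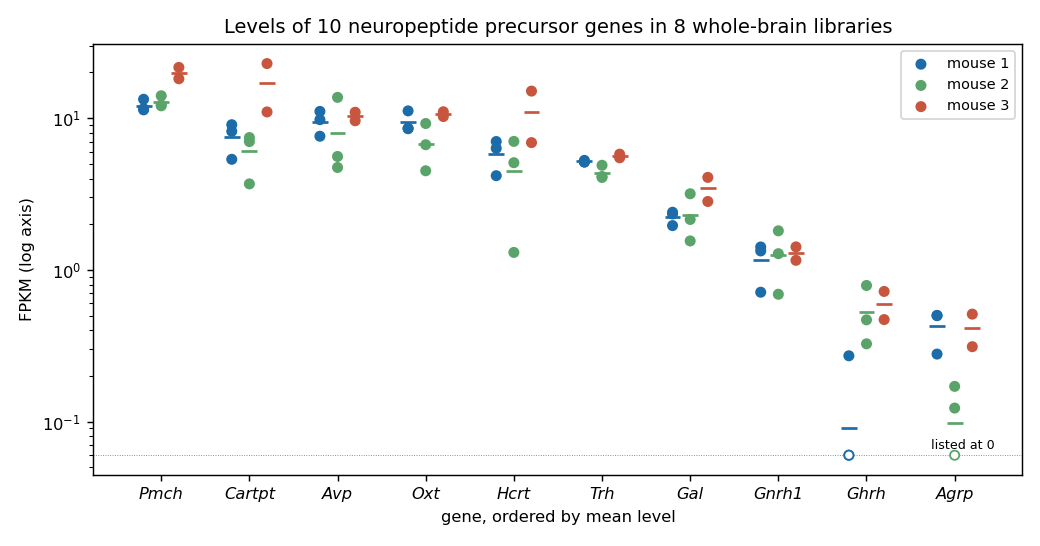
FPKM (log axis) of the 10 precursor genes in each of the 8 libraries, coloured by mouse, with a bar for the mean of each mouse and values listed at 0 drawn as open points on the dotted line. From Pmch, with an overall mean of 14.9 FPKM, to Trh, at 5.06 FPKM, neighbouring genes overlap, whereas the bars of Trh, Gal, Gnrh1 and Ghrh step down without overlap.

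The order of neighbouring genes among the upper ones was not resolved. By mouse means Pmch, at 12.1 FPKM or more, did lie above Avp, Oxt, Hcrt and Trh, which reached at most 11.0 FPKM. Single libraries did not all keep this order, since Avp was at 13.7 FPKM and Pmch at 12.2 FPKM in library 3 of mouse 2. Within a mouse the log2 ratio of Pmch to Cartpt was 0.66 ± 0.42 (mean ± SD, n = 3 mice), that of Cartpt to Avp was -0.01 ± 0.63, and that of Avp to Oxt was 0.07 ± 0.15, and the means of the mice overlapped in each of these pairs. The ratio of Oxt to Hcrt was 0.42 ± 0.40 and that of Hcrt to Trh was 0.39 ± 0.50, with Oxt above Hcrt in 7 of 8 libraries and Hcrt above Trh in 6 of 8. Below Trh the steps were wider. Trh exceeded Gal by 0.95 ± 0.25 on the log2 scale, Gal exceeded Gnrh1 by 1.08 ± 0.30, and Gnrh1 exceeded Ghrh by 2.01 ± 1.44. Each of these 3 orders held in 8 of 8 libraries, with no overlap between the means of the mice. Ghrh and Agrp, with a log2 ratio of 0.24 ± 2.35, could not be ordered.

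Oxt (NM_011025) and Avp (NM_009732) encode the precursors of oxytocin, which acts in parturition, milk ejection and social behaviour, and of vasopressin, the antidiuretic hormone. In the mm10 coordinates of the table Oxt lay at chr2:130576169-130577053 on the plus strand and Avp at chr2:130580677-130582541 on the minus strand, 3623 bases apart and pointing at each other. Each precursor carries the peptide followed by its neurophysin, the carrier protein with which it is packed. The coding stretches of the 2 nonapeptides are shown because they differ so little. They were read from GENCODE M21 transcripts on GRCm38, both in exon 1 of 3, at chr2:130576267-130576302 (plus strand) and chr2:130582437-130582472 (minus strand), and end with the codons of the glycine, lysine and arginine used for cleavage and amidation. Capitals mark the bases that differ.
Oxt: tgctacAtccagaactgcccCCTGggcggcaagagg
Avp: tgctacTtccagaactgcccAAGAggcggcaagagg
Counted from 1 at the 5′ end of the stretch, the differences from Oxt to Avp are A7T, C21A, C22A, T23G and G24A. They fall in codons 3, 7 and 8 and change 2 of 9 residues. Further along, in the neurophysin part, the transcripts share an identical run of 127 bases, which encodes part of a run of 60 residues common to both precursors. Of all 36-base windows of the Oxt transcript, 18.3% also occur in Avp, and 16.0% of 50-base windows do. The read length and the handling of reads with more than 1 match are not given in the sources used here, so a part of the signal of each gene may belong to the other, and both values are uncertain to that extent.

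The level of Oxt was 8.52, 11.2 and 8.57 FPKM in the libraries of mouse 1, 4.50, 6.68 and 9.22 FPKM in those of mouse 2, and 10.2 and 11.0 FPKM in those of mouse 3. Avp was at 7.60, 9.77 and 11.1 FPKM in mouse 1, at 4.73, 5.59 and 13.7 FPKM in mouse 2, and at 10.9 and 9.61 FPKM in mouse 3. Both genes were lowest in library 1 of mouse 2, the mice overlapped, and the full range of Avp lay within mouse 2. The ratio of Oxt to Avp within a library was steadier than either level, between 0.673 and 1.19 with a median of 1.04. Across the 8 libraries the log2 levels of the pair had a Pearson's r of 0.809, and of 0.801 once the trend with length that is described further on was removed. These correlations describe 8 libraries of 3 mice, and the shared sequence enters both values.

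Hcrt (NM_010410, chr11:100761693-100762931, minus strand) encodes the precursor of orexin-A and orexin-B, the wake-promoting peptides whose loss causes narcolepsy. The coding stretches that give both orexins the same 9 residues are shown, since the repeat is what the 2 peptides of this precursor share. Both lie in exon 2 of 2, at chr11:100761995-100762021 and chr11:100761902-100761928 (GRCm38, minus strand), and capitals mark the 5 bases that differ without changing a residue.
Hcrt copy 1: ggCaaccacgcTgcGggTatcctgacT
Hcrt copy 2: ggTaaccacgcAgcTggCatcctgacC
Hcrt was at 6.33, 7.01 and 4.18 FPKM in mouse 1, at 1.30, 5.08 and 7.03 FPKM in mouse 2, and at 15.1 and 6.90 FPKM in mouse 3. It spanned 11.6-fold, the widest range of the 8 members at 1 FPKM or more, with library 1 of mouse 2 at the bottom and library 1 of mouse 3 at the top. These extremes rest on 5 and 76.2 fragments. Of the 28 pairs of libraries, 13 had deposited confidence intervals for Hcrt that did not overlap, against a median of 7 pairs over 9012 genes with 1 transcript. Within mice, the variance of its fragment numbers was 7.16 times that of counting alone, and 98.1% of 3299 genes with a median of 20 to 200 fragments had a lower ratio. Libraries made from the same brain therefore differed in Hcrt beyond counting error.

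Pmch (NM_029971, chr10:88091072-88092374, plus strand) encodes melanin-concentrating hormone, which promotes feeding and sleep and is made in lateral hypothalamic neurons intermingled with the orexin neurons. The coding stretch of the peptide of 19 residues ends the precursor and is split between exon 2 and exon 3 of 3, at chr10:88091877-88092186 with the intron included. It is shown as the mature product of the highest member, with the 2 cysteine codons that close its ring in capitals.
Pmch: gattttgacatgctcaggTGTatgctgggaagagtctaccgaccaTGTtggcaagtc
Pmch was at 11.3, 13.3 and 11.5 FPKM in mouse 1, at 12.1, 14.04 and 12.2 FPKM in mouse 2, and at 18.2 and 21.6 FPKM in mouse 3. Both libraries of mouse 3 lay above all 6 others, and mice 1 and 2 overlapped. Each value rests on 65.2 to 150 fragments, and the variance within mice was 0.845 times that of counting alone. Unlike Hcrt, Pmch therefore varied between libraries of one brain no more than counting would give, and the ratio of Pmch to Hcrt within a library ran from 1.21 to 9.25. The locus of Pmch overlaps that of Parpbp. That gene had 1.06 ± 0.370 FPKM, and the strand setting of the counting is not given in the sources used here.

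Trh, Ghrh and Gnrh1 encode releasing hormones, which reach the anterior pituitary through portal blood and drive the release of thyrotropin, growth hormone and the gonadotropins. Trh (NM_009426, chr6:92242061-92244650, minus strand) encodes a precursor with 5 copies of the tripeptide TRH. The copies are shown with the pairs of basic codons on both sides at which the precursor is cut, and capitals mark the codons of glutamine, histidine, proline and the glycine that is turned into the amide. All lie in exon 3 of 3, between chr6:92242710 and chr6:92243111 (GRCm38, minus strand).
Trh copy 1: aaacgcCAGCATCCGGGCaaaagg
Trh copy 2: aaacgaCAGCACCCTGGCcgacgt
Trh copy 3: aagcggCAGCACCCTGGCaggcga
Trh copy 4: aagaggCAGCATCCAGGCcggagg
Trh copy 5: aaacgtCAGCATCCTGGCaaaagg
Trh had the narrowest range of the 8 members at 1 FPKM or more. It was at 5.14, 5.27 and 5.13 FPKM in mouse 1, at 4.06, 4.89 and 4.12 FPKM in mouse 2, and at 5.79 and 5.48 FPKM in mouse 3, a range of 1.42-fold. The 2 libraries of mouse 3 were the highest and all of mouse 2 lay below mouse 1. With 52.7 to 99.9 fragments per library, its variance within mice was 0.368 times that of counting, and 0 of 28 pairs of libraries had intervals that did not overlap.

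Gnrh1 (NM_008145, chr14:67745229-67749436, plus strand) encodes gonadotropin-releasing hormone, which is made by a very small number of scattered preoptic neurons. The coding stretch of the decapeptide, in exon 2 of 4 at chr14:67746409-67746447, is shown with the glycine, lysine and arginine codons that follow it in capitals.
Gnrh1: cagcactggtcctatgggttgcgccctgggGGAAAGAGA
Gnrh1 ranged from 0.690 to 1.81 FPKM with a median of 1.31 FPKM, and the mice overlapped. Only 3 to 7 fragments per library lie behind these values. The means of the mice were 1.15, 1.26 and 1.29 FPKM.

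Ghrh (NM_010285, chr2:157329496-157346655, minus strand) was listed at 0 in libraries 2 and 3 of mouse 1 and was between 0.271 and 0.789 FPKM in the other 6. In those 6, one fragment was worth 0.235 to 0.325 FPKM. In the 2 libraries at 0, with the worth of a fragment scaled from Gnrh1 in the same library, a count of 0 allows a level of up to 0.725 FPKM in library 2 and 0.617 FPKM in library 3, taking 3 counts as the limit. These limits cover counting error only and reach into the range of the other libraries. Agrp, which encodes the antagonist of melanocortin receptors in hunger-driving arcuate neurons, was listed at 0 in library 1 of mouse 2 and reached at most 0.511 FPKM. The table holds 2 Agrp transcripts (NM_007427 and NM_001271806, chr8, minus strand), which together had at most 3.2 fragments in a library.

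Cartpt (chr13:99898483-99900683, minus strand) encodes CART, a peptide that lowers food intake and is found in the hypothalamus and in several other brain regions. The table holds 2 transcripts. The longer, NM_013732, differs from the shorter, NM_001081493, by 39 bases that add 13 residues to the precursor. These bases, at chr13:99900041-99900079 in exon 2 of 3, are shown in capitals between 12 bases of either side, since they are what separates the 2 transcripts.
Cartpt: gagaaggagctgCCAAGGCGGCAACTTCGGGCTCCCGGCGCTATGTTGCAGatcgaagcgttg
Cartpt was at 5.35, 9.05 and 8.19 FPKM in mouse 1, at 3.69, 7.01 and 7.44 FPKM in mouse 2, and at 11.0 and 22.9 FPKM in mouse 3. Both libraries of mouse 3 lay above the other 6, but library 2 was well above library 1. The shorter transcript took 70.9 to 96.5% of the level, with a median of 83.2%. The share of the longer transcript, with a median of 16.8%, ran from 3.55% in library 3 of mouse 1 to 29.1% in library 1 of mouse 3 and overlapped between the mice. It rests on 1.43 to 32.2 fragments, and the division of reads between transcripts is an estimate.

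**Figure D2:**
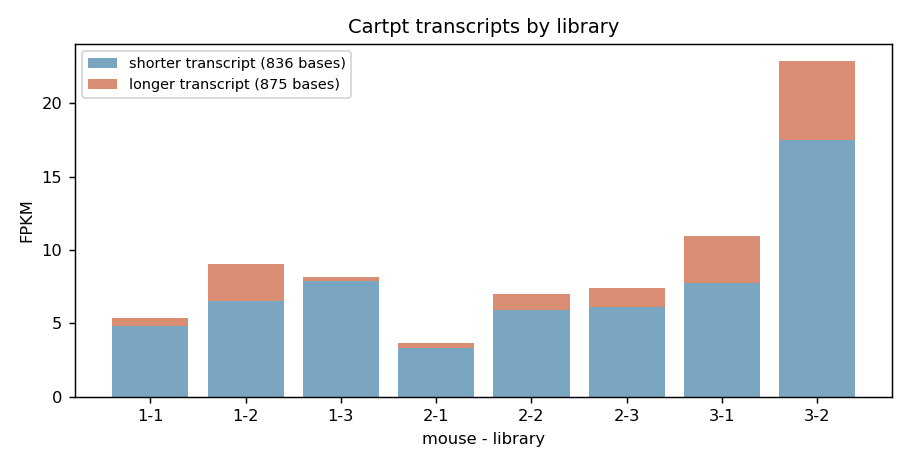
Stacked bars of the shorter and the longer Cartpt transcript in each of the 8 libraries (mouse and library number), in FPKM. The shorter transcript was the higher one in every library, and the longer one reached at most 29.1% of the sum.

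Gal (NM_010253, chr19:3409917-3414457, minus strand) encodes galanin, an inhibitory peptide of hypothalamic, preoptic and brainstem neurons. It was at 1.96, 2.34 and 2.40 FPKM in mouse 1, at 1.55, 3.17 and 2.15 FPKM in mouse 2, and at 2.82 and 4.07 FPKM in mouse 3. Its highest library was library 2 of mouse 3, but library 2 of mouse 2 lay above library 1 of mouse 3, so the mice overlapped. It rests on 8 to 28 fragments per library, with a variance within mice of 1.10 times that of counting.

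The mice were compared with limma, by a moderated F-test of the log2(FPKM + 1) levels. Genes averaging 1 FPKM or more entered the test, 13001 in all and 8 of the 10 members among them. On this scale a difference understates the change of low genes. Pmch differed between the mice, with an adjusted p of 0.0114 in limma's F-test, and was 1 of 8 members tested that passed the threshold of 0.05, while 25.5% of all genes tested passed it. A contrast of mouse 3 with the mean of mice 1 and 2 in the same fit called 2 members higher, against 20.4% of all genes tested, and 0 lower, against 17.5%. Of all genes called in this contrast 53.9% were higher in mouse 3, a share that was 15.1% in TPM, where the median contrast of all genes was -0.26. At an unadjusted p under 0.05 in this contrast, 4 of 8 members were higher and 0 lower, against 3422 and 2941 of the 13001 genes tested. Pmch was higher in mouse 3 by 0.64 ± 0.10 (log2 scale, ± SE, limma adjusted p = 0.00354) and Cartpt by 1.16 ± 0.31 (limma adjusted p = 0.02004). For Cartpt the F-test over all 3 mice gave an adjusted p of 0.0518 in limma.

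The remaining 6 members tested did not pass, though each had a positive contrast. Agrp and Ghrh entered only when genes down to a mean of 0.1 FPKM were tested, with limma adjusted p of 0.0557 and 0.0522 in the F-test, which 18.0% of the genes then tested passed. Hcrt had the next largest, 0.98 ± 0.45 (limma adjusted p = 0.115), and it was 0.47 without library 1 of mouse 3 and 1.497 without library 2. Gal had 0.45 ± 0.18 (limma adjusted p = 0.0784), Oxt 0.39 ± 0.21 (limma adjusted p = 0.157) and Trh 0.21 ± 0.081 (limma adjusted p = 0.0748). Avp, at 0.28 ± 0.31, and Gnrh1, at 0.07 ± 0.19, had contrasts no larger than their SE. Single libraries decided some of these values. Without library 3 of mouse 2, Avp had 0.49 (limma adjusted p = 0.0308) and Oxt 0.50 (limma adjusted p = 0.0389), and Avp had 0.15 without library 1 of mouse 2. Without library 2 of mouse 2, Gal had 0.54 (limma adjusted p = 0.0232) and Trh 0.24 (limma adjusted p = 0.0448), and Gal had 0.25 without library 2 of mouse 3. Without library 2 of mouse 3, when mouse 3 has 1 library that is assumed to vary like those of the other mice, genes called by the F-test fell from 3310 to 126. The contrast of Pmch was then 0.52 (limma adjusted p = 0.0424), with an adjusted p of 0.105 in limma's F-test, and that of Cartpt was 0.67 (limma adjusted p = 0.248). The contrast of Pmch passed in all 8 fits that left out 1 library, and that of Cartpt in the 7 others.

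**Figure D3:**
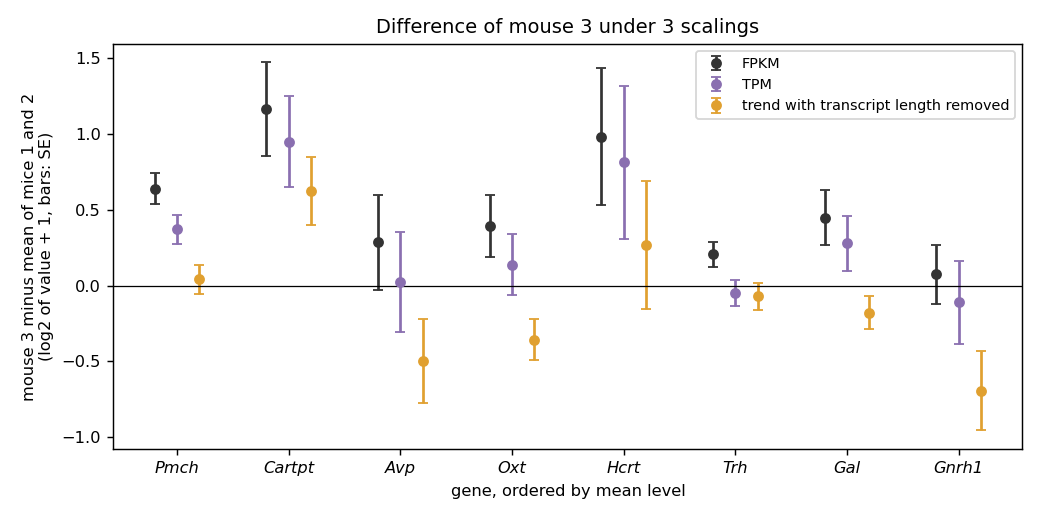
Difference of mouse 3 from the mean of mice 1 and 2 for the 8 members tested, on the scale of log2(value + 1) with bars of 1 SE, for FPKM, for TPM and with the length trend removed. All 8 differences are above 0 in FPKM, from 0.07 for Gnrh1 to 1.16 for Cartpt, 6 of 8 are in TPM, and 3 of 8 are with the length trend removed.

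Transcript length moved with these differences. The members' transcripts are short, from 507 to 1384 bases with a median of 641.5 bases, whereas the median of the genes tested was 2845 bases. Genes tested with transcripts in this length range numbered 1879. Their median contrast was 0.44, close to the members' median of 0.42, while that of all genes tested was 0.02. Of these 1879 genes 40.5% passed limma's F-test, and 50.7% were called higher and 1.81% lower in mouse 3. At an unadjusted p under 0.05 in the contrast, 1149 of the 1879 were higher and 50 lower. After the trend with length was removed from each library, 0 of 8 members were called by limma's F-test, against 20.3% of all genes. In that F-test 1 member had an unadjusted p under 0.05, against 4753 of 13001 genes. In the contrast 0 members were called higher, against 16.3% of all genes, and 0 lower, against 15.7%. At an unadjusted p under 0.05 in the contrast, 1 member was higher and 2 were lower, against 2896 and 2915 of 13001 genes. The median contrast of the members was then -0.13. That of Pmch fell to 0.04 ± 0.096 (limma adjusted p = 0.755), and that of Cartpt to 0.62 ± 0.22 (limma adjusted p = 0.0641). Over the same 1879 genes, short transcripts were raised in both libraries of mouse 3, by a median of 0.218 in library 1 and 0.457 in library 2, and lowered in library 1 of mouse 2, by -0.354. The length trend and the mouse therefore cannot be told apart for these genes. In TPM, where each library sums to the same total, limma's F-test called 1 member, Pmch, against 42.3% of all genes, and the contrast called Pmch and Cartpt higher, against 7.88%, and 0 members lower, against 44.2%.

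Some of the spread was not along this trend. With it removed, Pmch ran from 12.3 to 16.7 FPKM and Trh from 4.22 to 5.46 FPKM, ranges of 1.35-fold and 1.29-fold. Hcrt still ran from 2.28 FPKM in library 1 of mouse 2 to 11.5 FPKM in library 1 of mouse 3, a range of 5.05-fold. Avp spanned 2.79-fold and Cartpt 2.96-fold, with Cartpt again highest in library 2 of mouse 3, while Hcrt in that library was below its own mean. Oxt spanned 1.91-fold and Gal 1.67-fold. Gnrh1, which rests on the fewest fragments of the 8, ran from 0.280 to 2.31 FPKM. Its range of 8.26-fold was the widest, but it was 2.62-fold before the removal, which therefore widened it. For Gnrh1 this range is not a measure of the spread that remained.

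**Figure D4:**
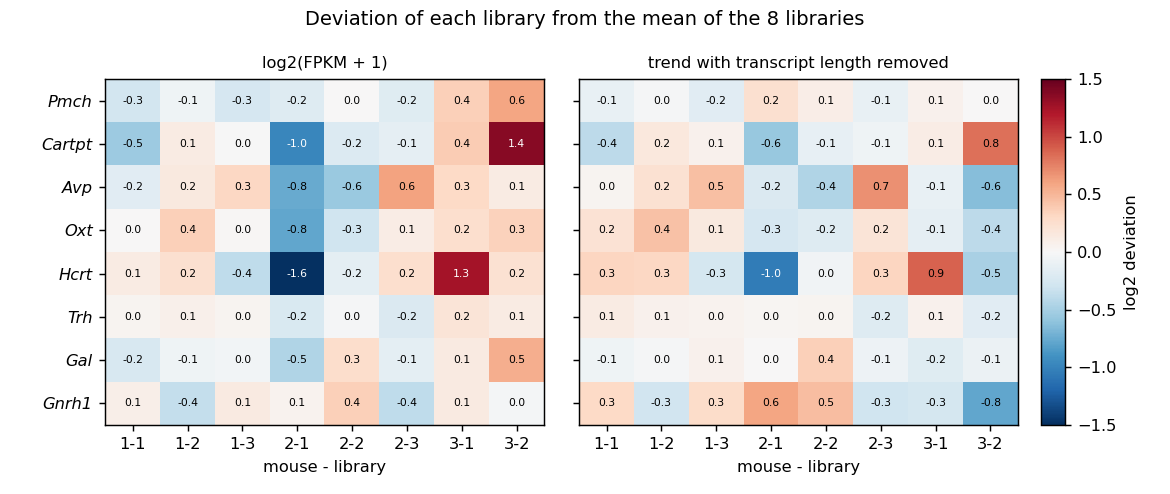
Deviation of each library (columns, mouse and library number) from the mean of the 8 libraries for 8 members (rows), in log2 units, for log2(FPKM + 1) on the left and with the trend with transcript length removed on the right. In FPKM Hcrt is lowest in library 1 of mouse 2 and highest in library 1 of mouse 3, and both extremes remain on the right, whereas Pmch is close to 0 in every library there.

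The receptors of these peptides were mostly low. Of 16 receptor genes, 3 reached a mean of 1 FPKM and 5 were under 0.1 FPKM. Mchr1, the receptor of melanin-concentrating hormone, was the highest at 4.62 ± 0.732 FPKM. Trhr had 1.53 ± 0.120 FPKM and Oxtr 1.22 ± 0.191 FPKM. The orexin receptors Hcrtr1 and Hcrtr2 were at 0.962 ± 0.157 and 0.791 ± 0.0720 FPKM, and the second TRH receptor Trhr2 at 0.752 ± 0.0969 FPKM. Of the melanocortin receptors, on which AgRP acts, Mc4r had 0.596 ± 0.0653 FPKM and Mc3r 0.157 ± 0.0648 FPKM.

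Among the vasopressin receptors only Avpr1a, the main brain form, was above 0.1 FPKM, at 0.289 ± 0.0338 FPKM. The kidney receptor Avpr2 had 0.0299 ± 0.0157 FPKM and the pituitary receptor Avpr1b 0.00491 ± 0.00456 FPKM. Galr1, Galr2 and Galr3 stepped down from 0.263 ± 0.103 to 0.129 ± 0.0236 and 0.0555 ± 0.0495 FPKM. Ghrhr and Gnrhr, which act in the pituitary, were listed at 0 in all 8 libraries. By limma 0 of the 3 receptors tested differed between the mice, against 25.5% of all genes tested. In the F-test 0 receptors had an unadjusted p under 0.05, against 5303 of the 13001 genes tested. Mchr1 had a contrast of -0.34 in mouse 3 (limma adjusted p = 0.0631), and Oxtr and Trhr had -0.21 and -0.10. These 3 receptors have transcripts of 2189 to 4568 bases, longer than those of any member, so that the length trend bears on any comparison of receptors with peptides between the mice. With the trend removed the contrast of Mchr1 was -0.43 (limma adjusted p = 0.0382), that of Oxtr -0.10 and that of Trhr -0.01. The summed receptors were at 12.3, 11.9 and 10.03 FPKM in mice 1, 2 and 3, and the summed peptides at 53.4, 46.6 and 80.1 FPKM, both without correction for length.

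**Figure D5:**
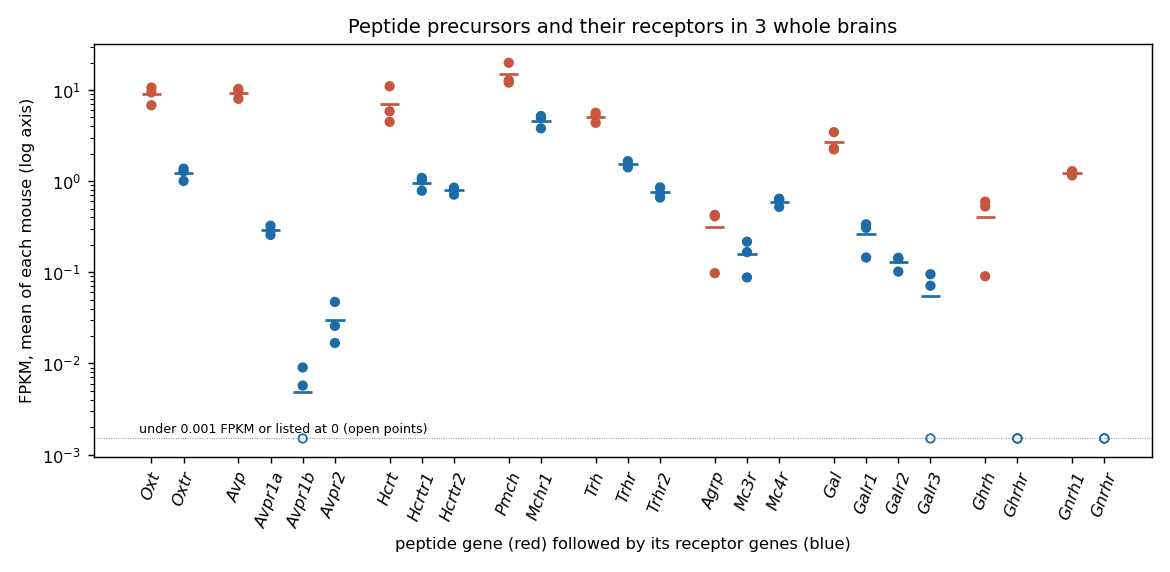
Mean FPKM of each mouse (log axis) for the peptide genes in red, each followed by the genes of its receptors in blue, with values under 0.001 FPKM or listed at 0 drawn as open points at the dotted line. Mchr1 at 4.62 FPKM is the highest receptor, and Ghrhr and Gnrhr are at the dotted line in all 3 mice.

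The genes for precursor processing serve peptidergic cells throughout the brain. All 8 of the list were tested and 4 passed limma's F-test, against 25.5% of all genes tested. In the contrast 3 were higher and 1 lower in mouse 3, against 20.4% and 17.5%, and the same background holds for the lists that follow. Cpe, the carboxypeptidase that trims basic residues, was the highest at 916 ± 172 FPKM and was higher in mouse 3 by 0.45 (limma F-test, adjusted p = 0.0203). Scg5, a chaperone of the convertase PC2, had 159 ± 34.8 FPKM and was higher by 0.50, and Qpct, which forms the pyroglutamate at the start of peptides such as TRH and GnRH, had 7.34 ± 2.72 FPKM and was higher by 0.76. Pcsk2, which encodes PC2 itself, had 64.3 ± 15.0 FPKM and was lower by -0.61 (limma F-test, adjusted p = 0.0063). The 3 that were higher have transcripts of 1227 to 2094 bases and Pcsk2 one of 4743 bases. With the length trend removed Cpe had a contrast of 0.34 (limma adjusted p = 0.00472), Qpct 0.62 (limma adjusted p = 0.00661), Pcsk2 -0.49 (limma adjusted p = 0.00126) and Scg5 0.16 (limma adjusted p = 0.126).

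Of 12 other hypothalamic peptide genes, 7 were tested and 0 passed limma's F-test, while 1, Tac1, was higher in mouse 3. In the F-test 2 of the 7 had an unadjusted p under 0.05, against 5303 of the 13001 genes tested. Sst, which is also used by cortical and hippocampal interneurons, was the highest at 162 ± 22.0 FPKM, and Qrfp at 0.00565 FPKM and Nms at 0.0529 FPKM were the lowest. Transcription factors that mark hypothalamic cells were low. Of 10, only Lhx9 reached 1 FPKM, at 1.56 ± 0.187 FPKM, and Rax, Nr5a1, Hmx2 and Hmx3 were under 0.1 FPKM. Their sum ran from 2.64 FPKM in library 2 of mouse 3 to 4.15 FPKM in library 1 of mouse 2, the library in which Oxt, Avp, Hcrt, Cartpt, Gal and Trh were lowest. It was 3.40, 3.54 and 2.83 FPKM in mice 1, 2 and 3, lowest in the mouse with the highest peptide sum. The sums of the other 2 hypothalamic lists were highest in mouse 3, but single genes weighed heavily in them. The 12 other peptide genes summed to 299, 257 and 322 FPKM in mice 1, 2 and 3, of which Sst gave 162, 140 and 184 FPKM. The 8 hypothalamus-enriched genes summed to 181, 169 and 240 FPKM, of which Nnat gave 137, 125 and 208 FPKM. Of the genes tested, 5 of 7 other peptide genes and 1 of 4 hypothalamus-enriched genes had a positive contrast of mouse 3. None of the list sums was corrected for length, and the transcript of Lhx9 has 4551 bases. Among 8 hypothalamus-enriched genes, 4 were tested, and Nnat (157 ± 45.3 FPKM) was higher in mouse 3 by 0.67 and Peg3 (27.2 FPKM) lower by -0.64. Their transcripts have 1248 and 6624 bases, and with the length trend removed the contrasts were 0.34 (limma adjusted p = 0.00897) and -0.44 (limma adjusted p = 0.0303), while that of Tac1 was 0.09 (limma adjusted p = 0.502). The part of the amount of hypothalamic tissue in the members' differences was not tested.

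Markers of neighbouring tissue were given for the same libraries. Pituitary hormone genes and Pou1f1 summed to between 0.464 and 1.99 FPKM, 0 of 7 reached 1 FPKM, and Cga, Fshb, Tshb and Pou1f1 were under 0.1 FPKM, with Gh highest at 0.369 FPKM. All 5 choroid plexus genes were tested. Ttr was at 472 ± 52.3 FPKM, and Kl alone passed limma's F-test, lower in mouse 3 by -0.68 and by -0.54 with the length trend removed. Of 5 neuronal genes, Syt1, Rbfox3 and Eno2 were lower in mouse 3, Syt1 by -0.73 and by -0.61 with the length trend removed, and Snap25 was the highest at 1056 ± 56.3 FPKM. The labels give no sex for these mice. The Y-linked gene Ddx3y was at 13.2 to 19.1 FPKM over the libraries, and Xist was at no more than 0.0246 FPKM in any library. This is the pattern of male mice.

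Likeness between genes was measured as Pearson's r of log2(FPKM + 1) over the 8 libraries against 13000 other genes, as a description with no test. The closest gene was Trim25 to Oxt (r = 0.985), Syde1 to Avp (r = 0.983), Timm50 to Hcrt (r = 0.985) and Rab31 to Pmch (r = 0.991). It was Wdr12 to Trh (r = 0.962), Mff to Cartpt (r = 0.998), Armc10 to Gal (r = 0.984) and Ndc1 to Gnrh1 (r = 0.894). With only 8 libraries of 3 mice, many genes reach such values. Among the members, Oxt ranked 188 of all genes for Avp and Avp ranked 993 for Oxt. With the length trend removed, Timm50 was again the closest gene to Hcrt (r = 0.987), and Oxt and Avp ranked 151 and 288 for each other. The r of Oxt with Hcrt went from 0.835 to 0.480, that of Pmch with Cartpt from 0.855 to -0.26, and that of Cartpt with Gal from 0.885 to -0.22.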

How the data were processed

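Whole-brain RNA of 3 C57BL/6NCrl mice was made into 8 libraries by the authors with the RNAqueous Micro and Kapa mRNA HyperPrep kits and run on an Illumina NextSeq500, after a check of RNA integrity. The submitters' processing notes name TopHat, Cufflinks and the mm10 build, with no versions. The deposited FPKM values were estimated by the authors for 34535 RefSeq transcripts per library, with confidence bounds. The deposited coverage is a signal, the read depth per base of a transcript, and was used with transcript length only for the depth of each library. Reads were divided between the transcripts of a gene by the authors' estimation.

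FPKM were summed per gene (24343 genes). Members and gene lists were chosen with earlier results of these data known. The text names the members, all receptors, the highest, called and under 0.1 FPKM genes of each other list, and the gene closest to each member. Tac1, Eno2 and some contrasts outside this rule were chosen after their values were seen. The mice were compared with limma 3.58.1 in R 4.3.3 on log2(FPKM + 1), without a mean-variance trend, over genes averaging 1 FPKM or more. P-values were adjusted over all of these by the Benjamini-Hochberg method, with a threshold of 0.05. The length trend was a lowess curve (span 0.3) of each library's deviations on log2 transcript length. FPKM are no counts, so no count test was run, and fragment numbers inferred from the bounds served only as a measure of precision and for the limit that a count of 0 allows. Positions are those of the table, counted from 1. Coding sequences came from GENCODE M21 on GRCm38, the same build. The fit was tested on simulated data. Alternatives were a pseudocount of 0.1, a minimum of 0.1 FPKM or none, TPM, the highest transcript of each gene, the length trend removed, a mean-variance trend, a replicate block, and each library left out in turn. No pair of libraries held identical values.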

Additional observations from a re-analysis of the deposited data

Results flagged for a closer look

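Among 26 genes looked at, the highest library of 2 members stood apart from the other 7, and chance alone sets about 1 in 20 genes apart in this way. Hcrt was at 15.1 FPKM in library 1 of mouse 3, where the next highest library had 7.03 FPKM, a gap of 0.584 of the whole range. Cartpt was at 22.9 FPKM in library 2 of mouse 3, where the next highest had 11.0 FPKM, a gap of 0.620 of the range. The 2 genes were thus highest in different libraries of the same mouse.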

How the results depend on the processing

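With the length trend removed, limma called 0 members between the mice (1 in the analysis as reported) and 0 higher in mouse 3 (2 as reported), and the contrast became negative for Oxt (-0.36), Avp (-0.50), Trh (-0.072), Gal (-0.18) and Gnrh1 (-0.70). In TPM it was negative for Trh (-0.049) and Gnrh1 (-0.11), and 5493 genes were called between the mice in place of 3310. Of the genes called in the contrast, 53.9% were higher in mouse 3 in FPKM, 15.1% in TPM and 51.0% with the length trend removed, and the median of all genes shifted to -0.26 in TPM. A mean-variance trend gave 2 of 8 members called by the F-test, against 3496 of 13001 genes. Leaving out 1 library at a time gave 0 to 3 members called, 1 to 4 higher in mouse 3 and 126 to 3873 genes called, the fewest without library 2 of mouse 3. Gnrh1 then turned to -0.01 without library 2 of mouse 1 or library 1 of mouse 3, and to -0.024 without library 3 of mouse 2, its highest being 0.16. Members lower in mouse 3 numbered 0 under every alternative. For the fits that left out 1 library, the share of all genes higher in mouse 3 is not given here. The counts of members higher in those fits therefore have no background. Of 286 recomputed levels of the 10 members and 16 receptors, 279 stayed within the SD between mice. Some of these could not move, since Ghrhr and Gnrhr were at 0 throughout and the highest transcript changes nothing for a gene with 1 transcript. The causes of these changes were not tested beyond what each alternative changes.

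With the library number as a replicate block, limma's F-test called 2 of 8 members between the mice, against 2995 of 13001 genes. The contrast called 3 members higher in mouse 3, and the share of all genes higher with this block is not given here. Cartpt then had an adjusted p of 0.00649 in limma's F-test and a contrast of 1.27 ± 0.11, and Avp a contrast of 0.55 ± 0.21 (limma adjusted p = 0.0844). Libraries with the same number in different mice had correlations of 0.00276 to 0.107, all positive, and other pairs -0.135 to 0.0645. These values were taken after centring on the few libraries of each mouse, so they cannot decide whether libraries were paired. No pairing was assumed in the analysis as reported. Depth limits Ghrh, Agrp and Gnrh1, which had at most 3, 3.2 and 7 fragments in a library, and the 3 mice limit every statement about differences between animals.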
